A study of Mus musculus with 32 samples.

Results

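Fetal liver progenitors of the mouse that lack the -77 enhancer of Gata2 were set against wild-type progenitors after both had received interferon-gamma (IFNg), so that treated levels were compared with treated levels. The mutant group was 4 libraries of the line hi-77-/- (Gata2 -77-/-) and the wild-type group 4 libraries of the line hi-77+/+ (Gata2 -77+/+), each given IFNg at 1 ng/ml for 4 h. The groups were read from the library titles, and these 8 libraries were 8 of the 32 in the study. The 4 mutant and 4 wild-type vehicle libraries served to ask which differences were there without IFNg. The other 16, given Pam3CSK4 (a synthetic ligand of TLR2) alone or with IFNg, shared the estimate of the spread. All 32 came from cells that carried ER-HOXB8, an estrogen-dependent HOXB8 that keeps progenitors dividing, grown with SCF-conditioned medium, 1 uM b-estradiol and G418. Each genotype was 1 line, so the enhancer deletion and any other difference between the 2 lines cannot be told apart. The labels do not say whether the 4 libraries of a group were separate cultures, and p-values measure the spread between these libraries, which may be technical.

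GATA2 is a transcription factor of blood stem and progenitor cells that also drives mast cell and early erythroid and megakaryocyte genes, and the -77 element is a distal enhancer of its gene. IFNg binds a receptor of IFNGR1 and IFNGR2 chains, which carry the kinases JAK1 and JAK2. STAT factors activated by these kinases bind GAS sequences in first-wave genes such as Irf1, and IRF proteins made in that wave bind ISRE sequences in antiviral, GTPase and antigen presentation genes.

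The promoters of 5 genes to which the results return are printed here. Gbp5 and Igtp encode IFNg-induced GTPases, Rsad2 an antiviral enzyme and Irf1 the first-wave factor, and all 4 were higher in the mutant line, while Klf1, an erythroid factor and known GATA target, was lower. Each window runs from 250 bases before to 50 bases after the start in RefSeq (GRCm38.p6), 5′ to 3′ on the strand of the gene. Capitals mark matches on either strand to the ISRE-type motif, which is GAAA repeated after a spacer of any 2 bases, or to the GAS-type motif TTCNNNGAA. In Klf1 they mark the GATA-type motifs, which are AGATAA and, as the other form searched, TGATAA. The windows are chr3:142496684-142496983 (plus strand) for Gbp5, chr11:58199306-58199605 (plus) for Igtp, chr12:26456403-26456702 (minus) for Rsad2, chr11:53769764-53770063 (plus) for Irf1 and chr8:84901732-84902031 (plus) for Klf1. RefSeq gave 2 windows for Irf1, and the one with more matches is shown.
Gbp5: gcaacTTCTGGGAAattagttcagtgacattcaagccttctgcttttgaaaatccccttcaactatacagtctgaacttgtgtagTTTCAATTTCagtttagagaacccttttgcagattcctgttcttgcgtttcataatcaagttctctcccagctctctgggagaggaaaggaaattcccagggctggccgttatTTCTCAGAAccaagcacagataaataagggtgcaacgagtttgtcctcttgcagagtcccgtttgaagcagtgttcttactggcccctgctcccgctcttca
Igtp: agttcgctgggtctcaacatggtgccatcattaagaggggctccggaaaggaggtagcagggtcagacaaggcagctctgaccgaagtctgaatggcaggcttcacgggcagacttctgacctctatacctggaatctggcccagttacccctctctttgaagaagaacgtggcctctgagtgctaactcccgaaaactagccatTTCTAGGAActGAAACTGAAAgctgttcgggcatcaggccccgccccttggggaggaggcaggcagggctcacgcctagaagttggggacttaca
Rsad2: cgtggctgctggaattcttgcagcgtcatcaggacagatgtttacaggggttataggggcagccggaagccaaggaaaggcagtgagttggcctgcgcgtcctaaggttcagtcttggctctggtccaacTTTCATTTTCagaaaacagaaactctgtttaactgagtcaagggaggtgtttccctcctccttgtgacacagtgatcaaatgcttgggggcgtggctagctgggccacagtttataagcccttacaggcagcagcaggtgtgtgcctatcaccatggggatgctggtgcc
Irf1: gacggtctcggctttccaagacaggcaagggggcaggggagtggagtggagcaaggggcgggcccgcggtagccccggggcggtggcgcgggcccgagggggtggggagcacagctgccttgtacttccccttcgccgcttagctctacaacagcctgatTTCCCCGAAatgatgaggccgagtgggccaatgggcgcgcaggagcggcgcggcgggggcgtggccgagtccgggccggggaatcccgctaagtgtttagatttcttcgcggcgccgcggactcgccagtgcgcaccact
Klf1: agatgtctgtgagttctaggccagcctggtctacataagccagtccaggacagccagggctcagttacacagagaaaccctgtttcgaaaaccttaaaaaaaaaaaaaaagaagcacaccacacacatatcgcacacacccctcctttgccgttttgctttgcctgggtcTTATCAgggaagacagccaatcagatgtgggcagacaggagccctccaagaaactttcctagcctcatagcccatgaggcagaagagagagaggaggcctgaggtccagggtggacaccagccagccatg
Gbp5 held 1 ISRE-type and 2 GAS-type matches, Igtp an ISRE-type and a GAS-type match side by side, Rsad2 an ISRE-type match, Irf1 a GAS-type match and Klf1 a TGATAA on the opposite strand. GATA-type letters were marked in Klf1 alone, and the Gbp5 window also holds an unmarked AGATAA. Of 27025 genes with a promoter in the table, 3.99% held the ISRE-type letters, 9.55% the GAS-type letters and 21.0% either GATA-type sequence. The table held a promoter for 4 of 10 tested guanylate-binding protein genes, 7 of 10 immunity-related GTPase genes and 20 of 26 erythroid genes, too few for a share over these lists, and that check is void. A match describes letters and is not evidence of binding.

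Gata2 itself had 6.97, 6.01, 6.74 and 6.59 CPM in the mutant libraries, against 39.9, 36.2, 38 and 40.4 CPM in the wild-type libraries. No mutant library came near a wild-type one, and the log2 difference was -2.55 ± 0.10 (SE; edgeR, adjusted p = 1.2e-19), so that the gene remained transcribed in the mutant line at a low level. CPM are counts scaled to a common library size after TMM normalization; means are given ± SD of 4 libraries and log2 differences (mutant over wild-type) ± SE of the model. The 8 libraries held 44.18 to 71.42 M counts. The 8 progenitor markers (Kit, Cd34, Flt3, Myb, Spi1, Cebpa, Ptprc and Mpo) were abundant in both lines, summing to 4930 to 5190 CPM in mutant and 4860 to 5080 CPM in wild-type libraries. The 5 T and NK cell markers summed to 3.03 to 3.45 CPM in mutant and 4.43 to 5.59 CPM in wild-type libraries, almost all Lck, with Cd3e and Ncr1 at 0. The 5 stromal and endothelial markers summed to 4.86 to 6.54 against 2.63 to 3.30 CPM, almost all Pecam1, with Col3a1 at 0, the 4 hepatocyte markers to at most 0.214 CPM with Ttr at 0, and the 2 mature B cell markers to at most 0.302 CPM. The 3 mature macrophage markers summed to 5.0 to 5.7 CPM in mutant and 18.1 to 20.9 CPM in wild-type libraries, all of it Adgre1, with C1qa and Marco at 0. Mitochondrial and small structural RNAs took 21.1% ± 3.89 of counts in mutant and 15.9% ± 1.87 in wild-type libraries (SD, n = 4 each; exact two-sided permutation p = 0.114, smallest possible 0.0286). The lines differed at sex-linked genes: Xist, which silences an X chromosome in female cells, averaged 531 ± 13.4 CPM in mutant and 0.0244 ± 0.00864 CPM in wild-type libraries, and the 4 tested Y-linked genes were lower, such as Kdm5d at 9.08 ± 0.745 against 44 ± 1.15 CPM.

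Under IFNg, 7893 of 14869 tested genes (53.1%) differed between the lines at an adjusted p under 0.05. Of all tested genes, 3822 (25.7%) were higher and 4071 (27.4%) lower in the mutant, with a median log2 difference of 0.00. The balance turned with the scaling: 4098 were higher and 3825 lower with RLE factors, 4128 and 3852 by DESeq2, and 4351 and 3581 with structural RNA genes left out. Most differences were small: the median size among called genes was 0.421, and a difference of 2-fold or more was found in 1259 higher genes (8.47%) and 822 lower ones (5.53%). The 4 mutant libraries lay wholly above or wholly below the 4 wild-type ones for 47.8% of tested genes. Counts of list members below are to be read against 25.7% higher and 27.4% lower. In bulk RNA, fewer cells of a type and less RNA per cell cannot be told apart.

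The IFNg receptor genes did not differ by this test, and the kinase of the second chain was lower. Ifngr1 had 71.4, 79.5, 76.5 and 75.6 CPM in the mutant libraries, against 71.6, 82, 80.9 and 75.7 CPM in the wild-type libraries (log2 difference -0.03 ± 0.04, adjusted p = 0.507). Ifngr2 ranged over 22.5 to 23.2 CPM in mutant and 21.9 to 24.1 CPM in wild-type libraries (-0.02 ± 0.05, adjusted p = 0.719). The libraries of the 2 lines overlapped for both chains. Jak2, the kinase carried by IFNGR2, had 33.2, 33.4, 33.4 and 36.1 CPM in the mutant libraries, against 58.6, 61.8, 60.6 and 58.5 CPM in the wild-type libraries, with a wide gap between the groups (-0.82 ± 0.04, adjusted p = 7.2e-19). Jak1 averaged 114 ± 5.46 against 120 ± 2.41 CPM (-0.08 ± 0.03, adjusted p = 0.0415), a call that was lost in 13 of 17 alternative fits (adjusted p 0.0061 to 0.62), among them those without mutant replicate 1, 2 or 3 or wild-type replicate 1, 2 or 4 (0.053 to 0.19). Tyk2, a kinase of the type I interferon receptor, was slightly lower (-0.15 ± 0.05), and that call was lost without mutant replicate 3 (adjusted p = 0.051; 0.0014 to 0.051 over 17 alternatives). Stat2 and Ifnar1, parts of type I interferon signalling, were higher by 0.21 ± 0.05 and 0.31 ± 0.03. Of the 10 tested receptor, kinase and STAT genes, 4 were higher and 3 lower (median 0.03).

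Of 12 interferon regulatory factors and coactivators, 6 were higher and 1 lower (median 0.50). Irf1 had 479, 489, 492 and 511 CPM in the mutant libraries, against 350, 354, 358 and 351 CPM in the wild-type libraries (0.48 ± 0.04). Irf8, a factor of monocyte and dendritic cell development, had 198, 190, 187 and 192 CPM in the mutant libraries, against 123, 115, 119 and 127 CPM in the wild-type libraries (0.66 ± 0.04). Neither gene showed any overlap between the lines. Batf2, a partner of IRF1 in activated macrophages, averaged 12.7 ± 0.943 CPM in mutant and 2.69 ± 0.486 CPM in wild-type libraries (2.24 ± 0.12), and Irf5, a factor of inflammatory cytokine genes, 20.2 ± 0.202 against 8.11 ± 0.179 CPM (1.32 ± 0.07). Nlrc5, which activates MHC class I genes, had 244, 245, 239 and 278 CPM in the mutant libraries, against 142, 122, 123 and 137 CPM in the wild-type libraries (0.94 ± 0.05, adjusted p = 8.1e-19). Ciita, its counterpart for MHC class II, was at 0.148 ± 0.0726 against 0.105 ± 0.0186 CPM and was not called (0.52 ± 0.48, adjusted p = 0.38). The member that was lower was Irf2bp2, a co-repressor that binds IRF2 (-0.47 ± 0.04).

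Of 12 inhibitors of JAK-STAT signalling, 6 were higher and none lower (median 0.10). Socs1, which blocks JAK kinases and is induced by IFNg, had 9.97, 7.82, 8.31 and 9.39 CPM in the mutant libraries, against 4.46, 3.37, 3.86 and 3.46 CPM in the wild-type libraries (1.23 ± 0.15). Usp18, which restrains the type I interferon receptor, averaged 26.5 ± 0.911 against 6.8 ± 0.634 CPM (1.96 ± 0.08), and Socs2, known for limiting growth hormone signalling, 4.41 ± 0.211 against 0.490 ± 0.0621 CPM (3.18 ± 0.16). In all 3 genes the lowest mutant library exceeded the highest wild-type library.

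**Figure D1:**
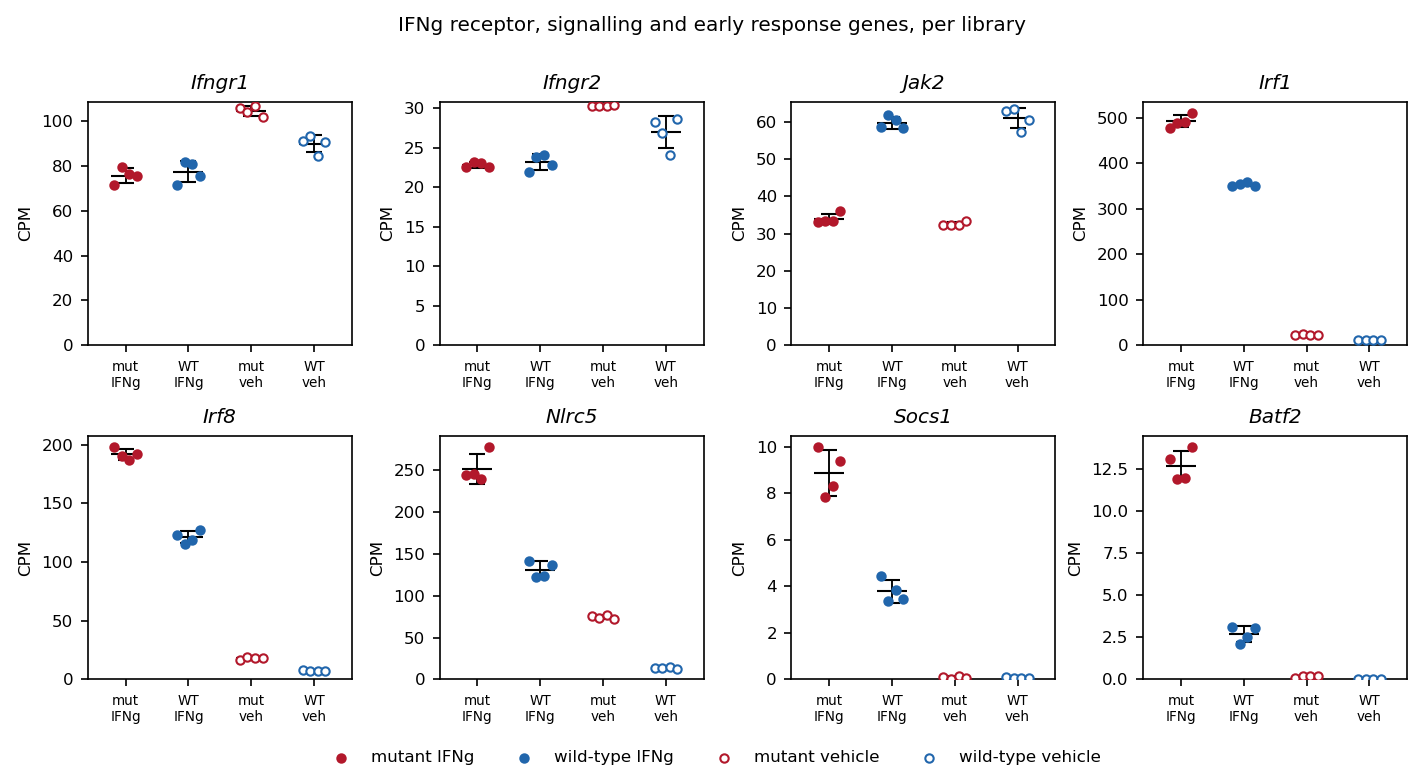
Expression (CPM, linear axes) of 8 genes of IFNg reception, signalling and early response in each library of the mutant and wild-type lines under IFNg and with vehicle (4 libraries a group; bars are mean and SD). Under IFNg the mutant libraries overlap the wild-type ones for Ifngr1 and Ifngr2, lie below them for Jak2 and above them for Irf1, Irf8, Nlrc5, Socs1 and Batf2.

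The GTPase genes that IFNg induces for defence against intracellular bacteria and parasites were higher throughout. All 10 tested guanylate-binding protein genes (median 2.59) and all 10 tested immunity-related GTPase genes (median 1.71) were higher in the mutant line with no overlap between the groups. With vehicle the medians of these lists were 2.11 and 1.31. Gbp2 had 242, 219, 216 and 259 CPM in the mutant libraries, against 66.9, 52.3, 51.2 and 63.3 CPM in the wild-type libraries (2.0 ± 0.09). Gbp5, which promotes inflammasome assembly and whose promoter is printed above, had 8.67, 7.48, 7.0 and 9.1 CPM in the mutant libraries, against 1.64, 0.791, 1.09 and 1.31 CPM in the wild-type libraries (2.75 ± 0.15, adjusted p = 1.3e-13). Both genes were several-fold higher in every mutant library than in any wild-type library. Gbp4 averaged 6.95 ± 0.977 CPM in mutant and 0.873 ± 0.252 CPM in wild-type libraries (2.99 ± 0.19). Iigp1, which attacks the vacuoles of parasites, had 447, 395, 398 and 419 CPM in the mutant libraries, against 88, 68.6, 69.1 and 79.3 CPM in the wild-type libraries (2.44 ± 0.09). Tgtp1 averaged 343 ± 18.4 against 85.7 ± 7.9 CPM (2.0 ± 0.09), with the limit that it and Tgtp2 are near-identical copies whose reads may be divided unevenly. Levels were also divided by the effective length of each gene in each library, as given by RSEM. In CPM per kilobase of that length, the level was highest for Irgm1 (384 ± 10.8 against 252 ± 4.26), Igtp (333 ± 10.5 against 203 ± 5.66) and Tgtp2 (239 ± 7.38 against 70.3 ± 3.4), in mutant against wild-type libraries. The log2 differences of Irgm1 (0.61 ± 0.04) and Igtp (0.71 ± 0.05) were among the smallest of their list. Gbp8, Gbp10 and Gbp11 were at or under 0.216 CPM per kilobase in mutant and at or under 0.00972 in wild-type libraries. Their log2 differences of 4.28 to 4.54 rest on very few wild-type counts and lift the median of their list. Over the alternative fits, 7 to 10 guanylate-binding protein genes were called higher.

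Of 31 antiviral effector genes, 19 were higher and 2 lower (median 0.34). Mx1, a GTPase that blocks influenza virus, had 21.1, 22.7, 23 and 22.6 CPM in the mutant libraries, against 0.297, 0.316, 0.412 and 0.412 CPM in the wild-type libraries (5.92 ± 0.13). Rsad2, which encodes viperin, had 15.3, 17.1, 16 and 16.8 CPM in the mutant libraries, against 0.573, 0.510, 0.589 and 0.372 CPM in the wild-type libraries (5.01 ± 0.17). Both were under 1 CPM in every wild-type library even with IFNg. Mx2 averaged 18.9 ± 0.463 against 0.984 ± 0.0858 CPM (4.25 ± 0.10). The members that were lower were Ifit2, which binds viral RNA (-0.32 ± 0.09), and Trim25, a ubiquitin ligase of RIG-I signalling (-0.15 ± 0.05), and the call of Trim25 was lost when the share of structural RNA entered the model (adjusted p = 0.17; 0.0025 to 0.17 over 17 alternatives).

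Of 16 cytosolic nucleic acid sensor genes, 12 were higher and none lower (median 2.13, and 1.61 with vehicle). The p200 family, which holds DNA sensors, led the list. Ifi209 had 45.7, 45.9, 47.4 and 43.1 CPM in the mutant libraries, against 3.23, 2.97, 3.24 and 2.96 CPM in the wild-type libraries (3.88 ± 0.08), and Mndal averaged 28.8 ± 1.68 against 1.01 ± 0.273 CPM (4.85 ± 0.11). These genes are neighbours: all 10 tested p200 genes between 173350879 and 173942672 on chromosome 1 (mm10), with Aim2 at one end, were higher, by 2.09 to 4.85. Other clusters did likewise, with 4 of 4 guanylate-binding protein genes on chromosome 3 (1.16 to 2.75), 6 of 6 on chromosome 5 (2.13 to 4.54) and 4 of 4 very large GTPase genes on chromosome 7 (1.88 to 3.71). In the last of these Gvin1 averaged 374 ± 23.1 against 74.6 ± 6.18 CPM (2.33 ± 0.10). The clusters were picked after the values were seen, and their members share sequence, so reads may be divided unevenly within them. Of 9 PARP family genes, 7 were higher and none lower (median 0.55), with Parp14, a regulator of macrophage activation, at 162 ± 11.9 against 87.4 ± 5.58 CPM (0.89 ± 0.06). Of 7 Schlafen genes, 2 were higher and 2 lower (median 0.06). Slfn5 was higher (1.16 ± 0.10), and Slfn2, which T cells need to stay quiescent, was lower (-0.56 ± 0.10), as was Slfn9 (-0.21 ± 0.04).

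Of 22 MHC class I and peptide loading genes, 19 were higher and 1 lower (median 0.59, and 0.6 with vehicle). H2-D1, a classical class I heavy chain, had 373, 362, 370 and 362 CPM in the mutant libraries, against 145, 143, 144 and 145 CPM in the wild-type libraries (1.35 ± 0.03). B2m, the light chain of class I molecules, had 683, 692, 697 and 667 CPM in the mutant libraries, against 326, 337, 320 and 331 CPM in the wild-type libraries (1.06 ± 0.04). Heavy and light chain were thus each higher with no overlap, as was H2-Q4, a non-classical heavy chain, at 17.4 ± 0.723 against 4.26 ± 0.261 CPM (2.03 ± 0.06). The lower member was Calr, the chaperone calreticulin, at 1150 ± 49.3 against 1930 ± 15.4 CPM (-0.74 ± 0.03). Of 9 MHC class II presentation genes, 7 were higher and 1 lower (median 0.66). The levels were low. H2-Ob averaged 3.43 ± 0.433 against 0.441 ± 0.0839 CPM (2.96 ± 0.14) and H2-DMb1, a chain of the peptide exchange factor, 2.93 ± 0.286 against 1.09 ± 0.239 CPM (1.43 ± 0.13), whereas H2-Oa, the partner of H2-Ob in the inhibitor of that factor, averaged 3.29 ± 0.507 against 5.98 ± 0.198 CPM (-0.86 ± 0.10). A picked set of 19 tested MHC and peptide loading genes on chromosome 17, between 33915899 and 37274484, left out H2-Ab1 and H2-Eb2. In this set 18 were higher and 1 was lower, with log2 differences from -0.86 to 7.47 and a median of 0.61.

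**Figure D2:**
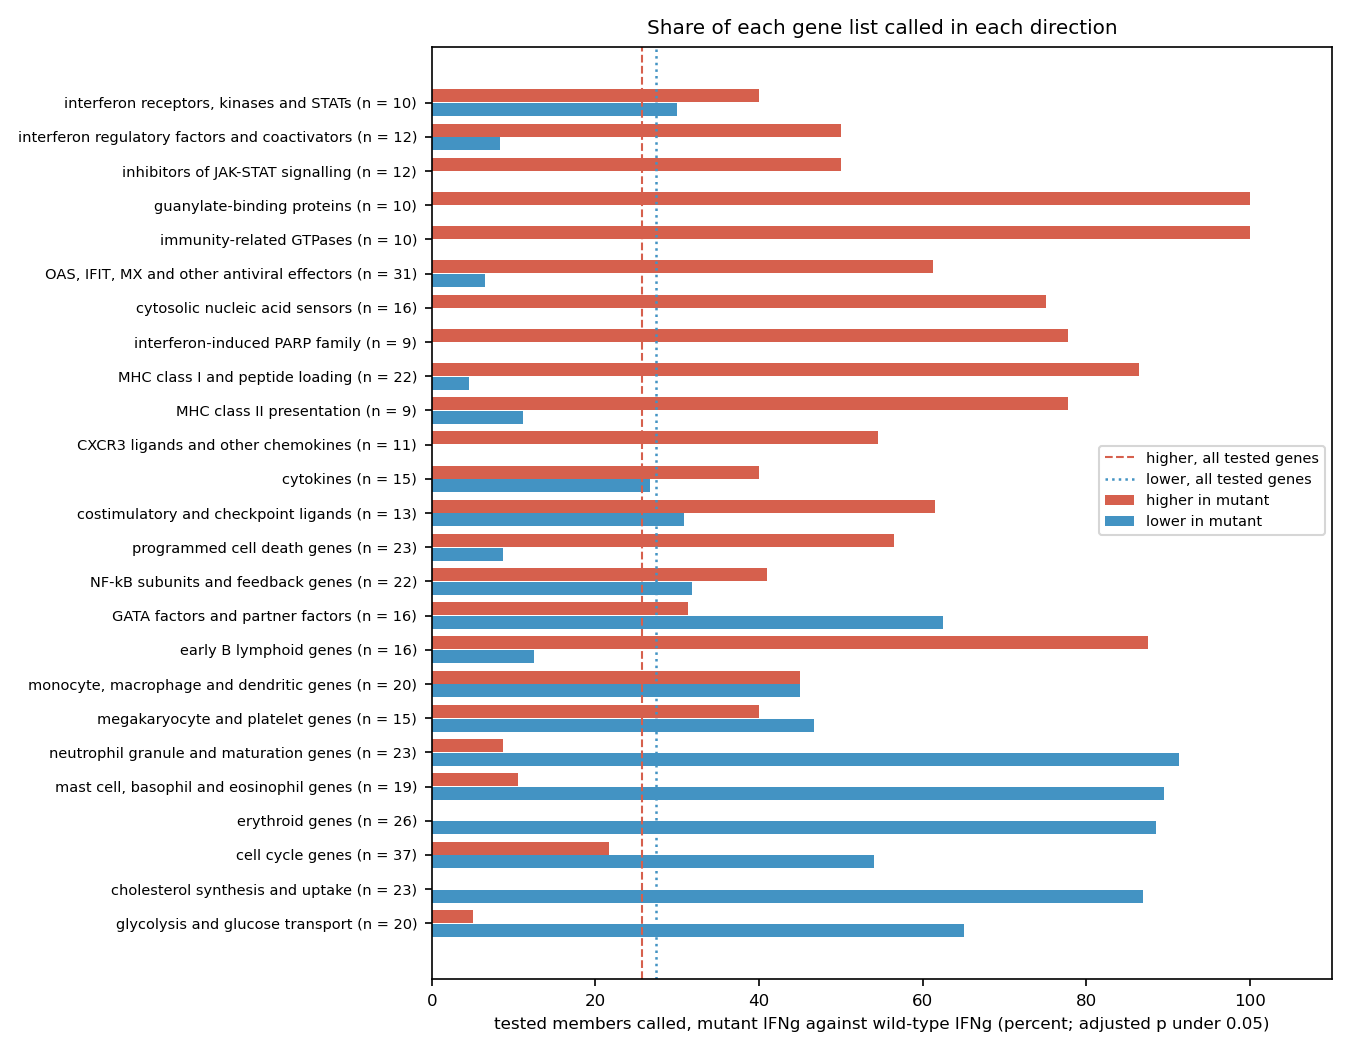
Percent of the tested members of 25 gene lists called higher or lower in the mutant IFNg than in the wild-type IFNg libraries (edgeR, adjusted p under 0.05; n is the number tested). The dashed and dotted lines mark the shares of all 14869 tested genes, 25.7% higher and 27.4% lower; all 10 guanylate-binding protein and all 10 immunity-related GTPase genes were higher, and 23 of 26 erythroid genes were lower.

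Secreted and surface proteins were mixed. Of 11 chemokine genes, 6 were higher and none lower (median 1.06). Cxcl10, which attracts CXCR3-bearing T cells, had 13.5, 12.5, 13.1 and 14.7 CPM in the mutant libraries, against 7.86, 7.21, 6.58 and 7.86 CPM in the wild-type libraries (0.87 ± 0.07), and Ccl3, a chemokine of activated macrophages, averaged 22.5 ± 1.1 against 8.59 ± 0.855 CPM (1.38 ± 0.06). Of 15 cytokine genes, 6 were higher and 4 lower (median 0.15). Tnfsf10, the death ligand TRAIL, averaged 21 ± 1.19 against 3.29 ± 0.478 CPM (2.68 ± 0.09). On the other side, Il15, a growth factor of NK cells, averaged 3.87 ± 0.318 against 6.53 ± 0.378 CPM (-0.76 ± 0.07) and Csf1, the growth factor of macrophages, 13 ± 0.322 against 18 ± 0.465 CPM (-0.47 ± 0.08). Of 13 costimulatory and checkpoint genes, 8 were higher and 4 lower (median 0.84), or 2 lower without mutant replicate 2, with the activation marker Cd69 at 229 ± 18.3 against 128 ± 7.46 CPM (0.84 ± 0.07) and Icosl, the ligand of ICOS, at 2.17 ± 0.209 against 0.423 ± 0.144 CPM (2.39 ± 0.16).

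Of 23 programmed cell death genes, 13 were higher and 2 lower (median 0.18). Casp1, the inflammasome protease, averaged 15.1 ± 0.898 against 7.26 ± 0.611 CPM (1.06 ± 0.09) and Ripk3, the necroptosis kinase, 33.5 ± 1.72 against 17.3 ± 1.06 CPM (0.95 ± 0.04). Of 22 NF-kB subunit and feedback genes, 9 were higher and 7 lower (median 0.18). The subunit gene Relb was higher (1.36 ± 0.13) and Rela lower (-0.63 ± 0.07). Of 21 toll-like receptor and adaptor genes, 10 were higher and 7 lower (median 0.07), with Tlr2, a receptor of bacterial lipopeptides, higher (1.62 ± 0.12) and Tlr4, the receptor of lipopolysaccharide, lower (-0.71 ± 0.10). Of 12 metabolic effectors of activated macrophages, 5 were higher and 3 lower (median 0.02). Slc11a1, the phagosomal metal transporter NRAMP1, had 21.9, 21, 21.4 and 23.3 CPM in the mutant libraries, against 1.38, 1.41, 1.44 and 1.37 CPM in the wild-type libraries (3.97 ± 0.08). No libraries overlapped. Cyba, a subunit of the NADPH oxidase, went the other way and averaged 59 ± 2.66 against 98.5 ± 2.08 CPM (-0.74 ± 0.07).

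IFNg-responsive genes were also chosen from libraries outside the comparison. In the wild-type line, 320 genes were called and at least 2-fold higher with IFNg and Pam3CSK4 together than with Pam3CSK4 alone. Of these, 202 (63.1%) were higher and 34 (10.6%) lower in the mutant than in the wild-type IFNg libraries, with a median log2 difference of 0.70, against 25.7%, 27.4% and 0.00 over all tested genes. The corresponding set from the mutant line held 337 genes, of which 211 (62.6%) were higher and 40 (11.9%) lower. The call fixes the order of the IFNg levels in the sets it defines, which are given as a description. The 202 had a median of 8.20 CPM in mutant and 2.08 CPM in wild-type IFNg libraries, and 0.927 CPM in mutant and 0.196 CPM in wild-type vehicle libraries. The 34 had 0.508 against 2.23 CPM under IFNg and 0.105 against 1.04 CPM with vehicle, and the 84 not called 0.737 against 0.57 CPM and 0.249 against 0.181 CPM. A promoter was in the table for 133 of the 202 and for 22 of the 34 lower genes, so that a check of motif letters over these sets is void for want of members with a sequence.

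Responsive genes that were lower in the mutant included abundant ones. Tubb3, a beta-tubulin best known from neurons, had 68.8, 61, 63.6 and 72.8 CPM in the mutant libraries, against 146, 135, 142 and 146 CPM in the wild-type libraries (-1.10 ± 0.06, adjusted p = 1.0e-16). Csf2rb, the common receptor chain for IL-3, IL-5 and GM-CSF, had 73.5, 74.8, 77.9 and 79.7 CPM in the mutant libraries, against 290, 263, 277 and 275 CPM in the wild-type libraries (-1.85 ± 0.05). Both groups of 4 were tight and far apart for each gene. Tagap, a GTPase-activating protein of immune cells, averaged 5.96 ± 0.371 against 18.8 ± 1.81 CPM (-1.65 ± 0.08), and Tnfaip2, an NF-kB target listed among the feedback genes, 39.4 ± 0.701 against 71.7 ± 2.01 CPM (-0.86 ± 0.05).

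Most of the genotype difference under IFNg was also there with vehicle. With vehicle 7980 genes (53.7%) differed, 3621 (24.4%) of them higher and 4359 (29.3%) lower in the mutant. Under both treatments 2910 genes were higher and 3405 lower, while 893 were called higher and 661 lower under IFNg alone. A call under 1 treatment alone does not show that the treatments differ, and the difference itself passed its test for 28 of the 893 and 13 of the 661. Across tested genes the log2 differences under IFNg and with vehicle, taken from separate libraries of the same lines, had a Pearson correlation of 0.936 and a Spearman correlation of 0.818, which describe genes that are not independent replicates. Of the 320 wild-type responsive genes, 42 (13.1%) stood higher in all 4 mutant vehicle libraries than in any wild-type IFNg library, against 27.6% of all tested genes. Mx1 was such a gene, with 12.2 ± 0.474 CPM in mutant vehicle and 0.359 ± 0.0611 CPM in wild-type IFNg libraries. The 320 genes were chosen for a rise with IFNg in the wild-type line. That choice by itself makes such genes rarer, so the lower share is a description only.

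**Figure D3:**
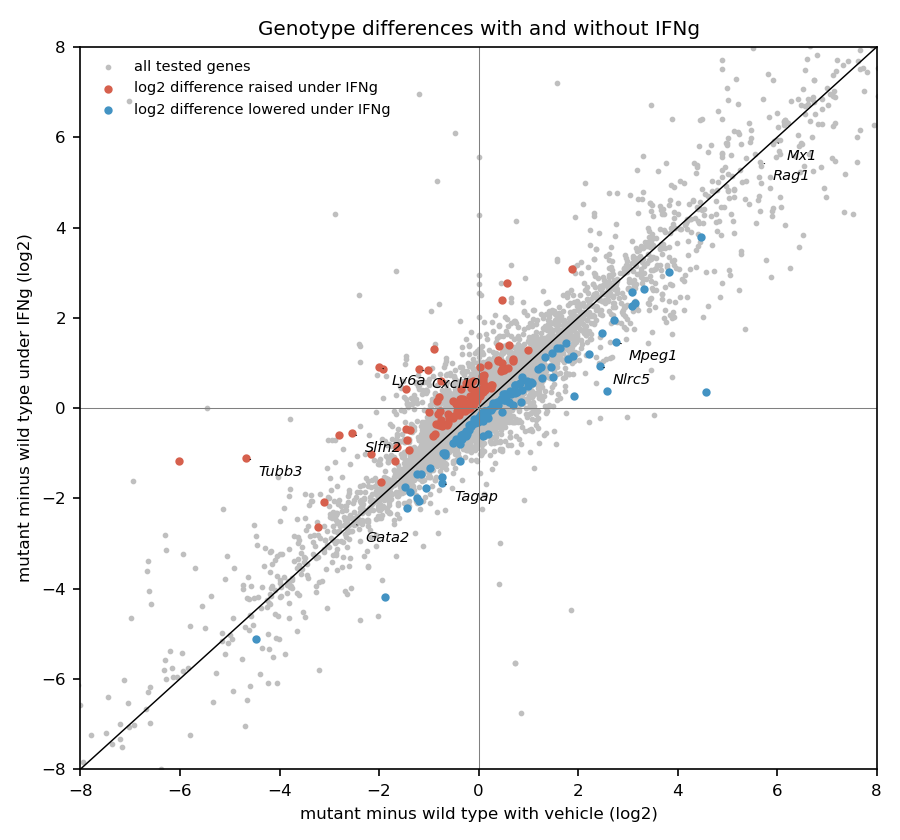
Log2 difference between the mutant and the wild-type line under IFNg (vertical) against that with vehicle (horizontal) for tested genes, with the line of equal differences; 90 genes beyond 8 on either axis are not shown. Colour marks the genes whose difference was raised (123) or lowered (122) under IFNg at an adjusted p under 0.05.

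The difference under IFNg departed from that with vehicle for 245 genes (1.65%), raised for 123 (0.827%) and lowered for 122 (0.820%) on the log2 scale. This count rested on single libraries in part: it was 136 without mutant IFNg replicate 1, 159 and 157 without wild-type IFNg replicates 2 and 3, 138 without wild-type vehicle replicate 4 and 382 without wild-type vehicle replicate 2. It was 127 with only the 16 libraries compared in the fit and 406 by DESeq2.

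Several genes that were higher in the mutant under both treatments had a smaller log2 difference under IFNg. Nlrc5 averaged 74.3 ± 2.11 CPM in mutant and 13.7 ± 0.731 CPM in wild-type vehicle libraries, a log2 difference of 2.44 ± 0.05, against 0.94 ± 0.05 under IFNg (change -1.50 ± 0.07, adjusted p = 3.1e-17). Mpeg1, the pore protein perforin-2, averaged 60.6 ± 2.67 against 21.8 ± 0.846 CPM under IFNg and 25.5 ± 1.46 against 3.74 ± 0.367 CPM with vehicle (change -1.30 ± 0.08, adjusted p = 1.3e-14). Irf1 averaged 22.5 ± 1.56 against 11.3 ± 0.712 CPM with vehicle, where its difference was 0.99 ± 0.04 (change -0.51 ± 0.06, adjusted p = 4.3e-07). In these 3 genes the log2 difference was smaller under IFNg, while the difference in CPM was larger. The log2 difference of Irf8 changed by -0.62 ± 0.07, adjusted p = 2.7e-07, that of Ifi47, an immunity-related GTPase, by -0.83 ± 0.13, adjusted p = 9.4e-05, and that of Usp18 by -0.76 ± 0.17, adjusted p = 0.0107 (lost without wild-type vehicle replicate 2, adjusted p = 0.054; 0.0040 to 0.054 over 25 alternatives). Gvin1 changed by -0.83 ± 0.20, adjusted p = 0.0334, and this call was lost without mutant IFNg replicate 1, 2 or 3, mutant vehicle replicate 1 or 3, wild-type IFNg replicate 1 or 4 or wild-type vehicle replicate 1, 3 or 4 (adjusted p 0.051 to 0.11; 0.00048 to 0.11 over 25 alternatives). Ifngr1 averaged 105 ± 2.29 CPM in mutant and 89.9 ± 3.86 CPM in wild-type vehicle libraries and was called higher there alone (change -0.25 ± 0.06, adjusted p = 0.0161). That change was lost without mutant IFNg replicate 1 or wild-type IFNg replicate 2 or 3 and with only the libraries compared (0.0020 to 0.072 over 25 alternatives). Ifngr2 was likewise called higher with vehicle alone (0.17 ± 0.05; edgeR, adjusted p = 0.00222), but its change was not called (-0.20 ± 0.07, adjusted p = 0.15).

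Other genes were lower in the mutant with vehicle and had a log2 difference raised under IFNg. Tubb3 had 0.243, 0.256, 0.133 and 0.145 CPM in the mutant vehicle libraries, against 4.59, 4.42, 5.1 and 5.65 CPM in the wild-type vehicle libraries. Its log2 difference was -4.67 ± 0.15 with vehicle and -1.10 ± 0.06 under IFNg (change 3.57 ± 0.18, adjusted p = 1.6e-15) and it was near silent in the mutant line with vehicle. Slfn2 averaged 4.58 ± 0.174 against 6.74 ± 0.492 CPM under IFNg and 0.200 ± 0.0599 against 1.16 ± 0.0753 CPM with vehicle (change 1.99 ± 0.22, adjusted p = 2.7e-07). Csf1 changed by 0.99 ± 0.13, Tnfaip2 by 0.78 ± 0.07, Slfn9 by 0.39 ± 0.06 and Pstpip2, an adaptor of the actin skeleton in myeloid cells, by 1.15 ± 0.19. Il12rb1, a receptor chain for IL-12 and IL-23, averaged 11.2 ± 1.63 against 10 ± 0.796 CPM under IFNg, where it was not called (but was called higher when the share of structural RNA entered the model, adjusted p = 0.040; 0.040 to 0.65 over 17 alternatives), and 2.98 ± 0.232 against 5.34 ± 0.189 CPM with vehicle (change 0.99 ± 0.12, adjusted p = 1.6e-06). Elsewhere the log2 difference was more negative under IFNg. Csf2rb had a log2 difference of -1.37 ± 0.05 with vehicle and -1.85 ± 0.05 under IFNg (change -0.49 ± 0.06, adjusted p = 5.4e-06). Tagap changed by -0.92 ± 0.12, adjusted p = 6.8e-06, Mtus1, a microtubule-associated protein, by -0.85 ± 0.08, adjusted p = 2.1e-08, and Thbs1, the platelet protein thrombospondin-1, by -0.76 ± 0.07, adjusted p = 1.4e-08.

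A few genes changed side. Under IFNg 19 genes were higher and with vehicle lower in the mutant. Cxcl10 had 0.276, 0.235, 0.0832 and 0.128 CPM in the mutant vehicle libraries, against 0.532, 0.422, 0.353 and 0.334 CPM in the wild-type vehicle libraries, so that the mutant line was lower with vehicle and higher with IFNg (change 2.07 ± 0.27, adjusted p = 1.0e-05). Stat2 averaged 37.4 ± 2.4 against 32.5 ± 1.27 CPM under IFNg and 8.02 ± 0.241 against 9.98 ± 0.806 CPM with vehicle (change 0.52 ± 0.08, adjusted p = 1.3e-04). Nfil3, a factor of innate lymphoid development, changed by 0.81 ± 0.09, adjusted p = 1.5e-07, Tent5c, a poly(A) polymerase, by 1.37 ± 0.22, adjusted p = 1.2e-04, and Ly6a, the stem cell antigen Sca-1, by 2.92 ± 0.56, adjusted p = 0.00235. Icosl, not called with vehicle, changed by 1.92 ± 0.33, adjusted p = 5.0e-04. The opposite switch was seen in 5 genes, all by small amounts. Cxcr4, the receptor of CXCL12, averaged 32.1 ± 2.05 against 37.7 ± 1.07 CPM under IFNg and 68.4 ± 1.79 against 60.4 ± 1.51 CPM with vehicle (change -0.41 ± 0.06, adjusted p = 8.3e-06). The other 4 were Dstyk (change -0.34 ± 0.06, groups overlapping under IFNg), the lysosomal phosphatase gene Acp2 (-0.25 ± 0.06), the autophagy gene Wipi2 (-0.21 ± 0.05) and Dazap2 (-0.17 ± 0.04). The change of Acp2 was lost without mutant IFNg replicate 1 or wild-type IFNg replicate 2 (adjusted p 0.051 and 0.058), that of Wipi2 without mutant IFNg replicate 1 or 2, mutant vehicle replicate 2 or 3, wild-type IFNg replicate 3 or 4 or wild-type vehicle replicate 1 or 3 (0.054 to 0.096) and that of Dazap2 without mutant IFNg replicate 1, wild-type IFNg replicate 2 or wild-type vehicle replicate 4 (0.064 to 0.066). All 3 changes were lost with only the libraries compared, and over 25 alternatives their adjusted p reached 0.12, 0.096 and 0.083. The IFNg calls of Acp2, without wild-type IFNg replicate 2, and of Wipi2, without mutant IFNg replicate 1 or 2 or wild-type IFNg replicate 3 or 4, were lost as well (adjusted p = 0.076, and 0.058 to 0.11).

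**Figure D4:**
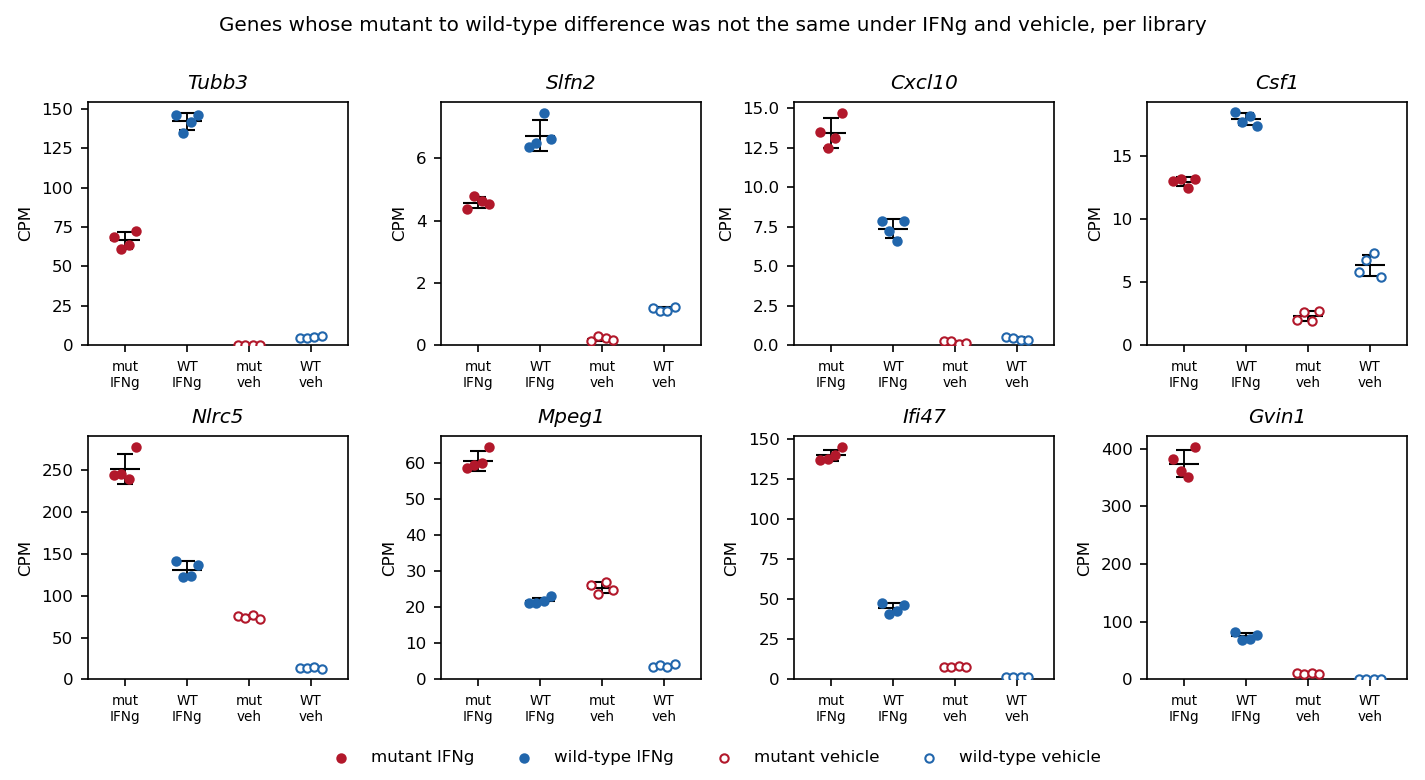
Expression (CPM) of 8 genes whose genotype difference departed between IFNg and vehicle, in each of the 4 libraries of the mutant and wild-type lines under IFNg and with vehicle, with mean and SD. Tubb3, Slfn2 and Csf1 were lower in the mutant with a smaller log2 gap under IFNg, Cxcl10 changed side, and Nlrc5, Mpeg1, Ifi47 and Gvin1 were higher with a smaller log2 gap under IFNg.

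Most tested genes of the erythroid list and of the mast cell, basophil and eosinophil list were lower in the mutant line under IFNg. With vehicle the medians of these lists were -4.63 and -3.89, and the values below are those under IFNg. Of 16 GATA factors and partners, 5 were higher and 10 lower (median -0.17). Gata1, the factor that follows GATA2 in erythroid and mast cells, had 1.07, 1.07, 1.57 and 1.36 CPM in the mutant libraries, against 23.5, 23.1, 24.2 and 23.7 CPM in the wild-type libraries (-4.20 ± 0.10). Klf1, whose promoter is printed above, averaged 0.450 ± 0.188 CPM in mutant and 11.2 ± 0.673 CPM in wild-type libraries (-4.58 ± 0.15). Gata3 went the other way, with a ratio of mutant to wild-type counts of 1010 (95% counting interval 181 to 40000) at 4.17 ± 0.465 against 0.00368 ± 0.00736 CPM. Of 26 erythroid genes, none were higher and 23 lower (median -4.26). Pklr, the red cell pyruvate kinase, and Car1, a carbonic anhydrase, had no counts in the mutant IFNg libraries and were at least 442-fold and 192-fold lower than in the wild-type (floor of 3 counts over the group). Ermap, a red cell surface protein, had a ratio of wild-type to mutant counts of 1340 (372 to 11100). Outside these lists Pir, an iron-binding nuclear protein, was at least 521-fold lower. Of 19 mast cell, basophil and eosinophil genes, 2 were higher and 17 lower (median -4.16), with Prg2, the eosinophil major basic protein, at 0.214 ± 0.123 against 39.5 ± 2.0 CPM (-7.45 ± 0.20).

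Of 23 neutrophil granule and maturation genes, 2 were higher and 21 lower (median -2.82). Ngp, a secondary granule protein, had 1.37, 0.799, 1.23 and 0.888 CPM in the mutant libraries, against 24, 25.8, 23.6 and 20.3 CPM in the wild-type libraries (-4.43 ± 0.14), and lactoferrin (Ltf) averaged 0.185 ± 0.115 against 6.79 ± 1.05 CPM (-5.10 ± 0.28). Their regulator Cebpe averaged 0.469 ± 0.0853 against 7.52 ± 0.840 CPM (-3.98 ± 0.19). One granule gene differed from these, since the collagenase Mmp8 averaged 47.6 ± 3.72 against 12.6 ± 0.903 CPM (1.92 ± 0.06). Of 20 monocyte, macrophage and dendritic genes, 9 were higher and 9 lower (median -0.08), with F13a1, a monocyte transglutaminase, higher at 281 ± 19.2 against 53.7 ± 1.79 CPM (2.39 ± 0.05) and the Fc receptor gene Fcgr3 lower at 28.9 ± 0.496 against 138 ± 3.35 CPM (-2.26 ± 0.04). Of 10 myeloid transcription factors, 6 were higher and 3 lower (median 0.22). Of 15 megakaryocyte and platelet genes, 6 were higher and 7 lower (median -0.31). The 2 chains of the fibrinogen receptor parted, with Itga2b at 1.82 ± 0.272 against 11.2 ± 1.32 CPM (-2.61 ± 0.11) and Itgb3 at 59.5 ± 4.0 against 26.6 ± 0.978 CPM (1.16 ± 0.05).

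Early B lymphoid genes were high in the mutant line. Of 16, 14 were higher and 2 lower (median 1.82). Rag1, a chain of the antigen receptor recombinase, had 86.8, 89.7, 85.5 and 89.1 CPM in the mutant libraries, against 2.1, 2.02, 2.03 and 1.87 CPM in the wild-type libraries (5.46 ± 0.06, adjusted p = 1.7e-38), a tight and complete separation. Igll1, a surrogate light chain, averaged 32 ± 2.71 against 1.75 ± 0.188 CPM (4.18 ± 0.09) and Il7r, the receptor of IL-7, 10.3 ± 0.401 against 1.3 ± 0.323 CPM (3.0 ± 0.15). Of 19 stem and progenitor regulators, 10 were higher and 6 lower (median 0.24), with Cd48, absent from the most primitive stem cells, at 10.1 ± 0.790 against 0.566 ± 0.0905 CPM (4.15 ± 0.14). Of 8 T and NK cell genes, 3 were higher and 3 lower (median 0.63); of 10 stromal and endothelial genes, 7 were higher and 3 lower (median 2.54), counts that were 3 and 1 under the stricter filter. Postn, a matrix protein, had a ratio of mutant to wild-type counts of 5900 (2020 to 28600) at 72 ± 4.18 against 0.0127 ± 0.0150 CPM. Of 4 hepatocyte genes, 1 was higher and 1 lower (median -0.09).

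**Figure D5:**
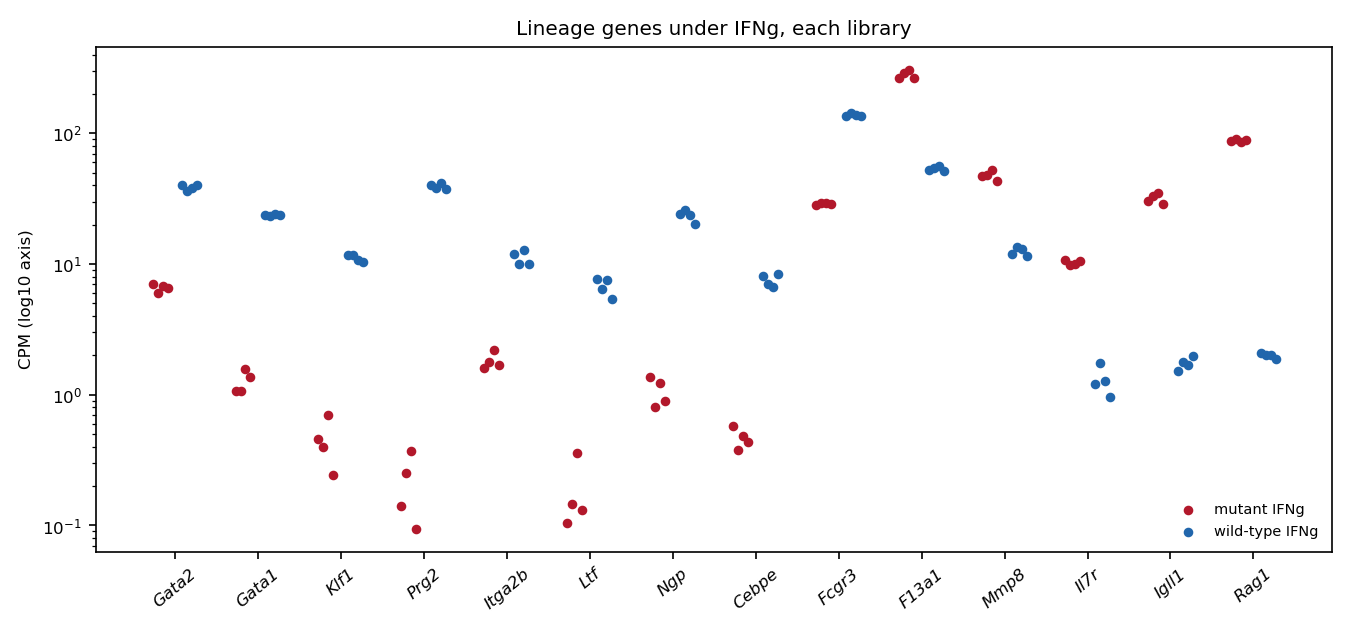
Expression (CPM, log axis) of 14 lineage genes in each of the 4 mutant and 4 wild-type libraries under IFNg. Gata2, Gata1, Klf1, Prg2, Itga2b, Ltf, Ngp, Cebpe and Fcgr3 lie lower in the mutant libraries, and F13a1, Mmp8, Il7r, Igll1 and Rag1 lie higher.

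Other groups differed by smaller amounts. Of 23 cholesterol synthesis and uptake genes, none were higher and 20 lower (median -0.31), with Mvd, an enzyme of the mevalonate pathway, at 19.7 ± 0.862 against 33.3 ± 1.66 CPM (-0.76 ± 0.06). Of 20 glycolysis and glucose transport genes, 1 was higher and 13 lower (median -0.18), and the exception was Hk3, a hexokinase of myeloid cells, at 72.4 ± 3.69 against 8.42 ± 0.379 CPM (3.10 ± 0.05). Of 37 cell cycle genes, 8 were higher and 20 lower (median -0.10). The D cyclins parted, with Ccnd2 at 198 ± 9.12 against 93.5 ± 3.98 CPM (1.08 ± 0.04) and Ccnd1 at 38.4 ± 1.07 against 59.1 ± 0.485 CPM (-0.62 ± 0.04), and both log2 differences were raised under IFNg (changes 0.38 ± 0.06 and 0.30 ± 0.05). Of 26 ribosome biogenesis genes, 3 were higher and 8 lower (median -0.05), a share of higher members below the background. Of 26 immediate-early genes, 10 were higher and 3 lower (median 0.15). Atf3, a stress-induced factor, averaged 8.79 ± 0.552 against 3.02 ± 0.191 CPM (1.54 ± 0.15) and Egr1, a factor induced by growth signals, 7.63 ± 0.754 against 2.95 ± 0.445 CPM (1.38 ± 0.14), with a change against vehicle of 0.97 ± 0.20, adjusted p = 0.00452 (0.00014 to 0.081 over 25 alternatives, lost with only the libraries compared).

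Of 10 imprinted genes, 6 were higher and none lower (median 0.78), and 3 were higher under the stricter filter. Dlk1, a Notch-like ligand expressed from the paternal allele, averaged 20.3 ± 2.36 CPM in the mutant libraries and had no counts in the wild-type libraries, at least 1620-fold higher. Of 5 X-inactivation and Y-linked genes, 1 was higher and 4 lower (median -2.21). For the 9 lists above with no member called in a direction, 1 member in all reached an unadjusted p under 0.05 in that direction by edgeR, and 0 were called in it by DESeq2.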

How the data were processed

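The deposited values are expected counts, which the authors obtained with RSEM 1.3.0 after STAR 2.5.2b alignment to mm10, per the submitters' processing notes. Each library had its own table. The annotation used by the authors was not given in the sources used here. Libraries were stranded, rRNA-depleted total RNA from 250000 cells, per the labels' protocols. Of 55487 identifiers 55394 matched GENCODE vM21, which gave symbols and mm10 positions. The TPM and FPKM columns were not used.

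Values above 0 were fractional in 11.07% of cases and were rounded. After filterByExpr 14869 genes remained (40618 removed). A robust edgeR quasi-likelihood model with TMM scaling and a mean for each group used all 32 libraries (24 residual degrees of freedom, biological coefficient of variation 7.22%). Contrasts were mutant against wild-type under IFNg, the same with vehicle, and the difference of the 2. P-values were adjusted by Benjamini-Hochberg over all tested genes, with 0.05 as the threshold. The model was also run on simulated counts in which far fewer genes changed than differed here. That run does not test a comparison in which most genes differ. Within each IFNg and vehicle group, no pair of libraries had identical counts. Pairs across groups and the libraries given Pam3CSK4 were not compared. Counting intervals and floors leave out other error.

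The comparison, the 37 gene lists and the named genes were chosen with earlier results of these data known. The rule named Gata2, 10 genes of the IFNg pathway, up to 10 greatest rises and falls of at least 5 CPM, up to 3 rises and 3 falls of at least 1 CPM a list, and up to 6 of each sign in the departure from vehicle; the text gives a selection. Csf2rb, Tent5c, Dazap2, Acp2, Wipi2, Dstyk, Cxcr4, Gbp2, Igtp and Irgm1 were named after their values were seen, and further genes of the rule are not reported here. Alternatives were RLE factors, other filters, DESeq2, only the libraries compared, leaving out each library, a replicate block, and leaving out or adjusting for structural RNA. Checks of the vehicle comparison and of the lists were added after seeing the data. Tools were R 4.3.3, edgeR 4.0.16, limma 3.58.1, DESeq2 1.42.0, Python 3.11.15, matplotlib 3.10.9, SciPy 1.17.1, numpy 2.4.6 and pandas 2.3.3.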

Additional observations from a re-analysis of the deposited data

Results flagged for a closer look

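Dixon's test at the 95% level was applied to 238 groups of 4 libraries, from the genes named and the share of structural RNA. It marked 21 groups in which 1 library stood apart, and chance alone marks about 1 in 20. In the mutant IFNg libraries, replicate 4 was high for Jak2 (36.1 CPM), Nlrc5 (278), Il12rb1 (13.6) and Itgb3 (65.5) and low for Zfp938 (5.31). Replicate 3 was high for Icosl (2.48), Relb (2.81), Ltf (0.356) and, with its 3 counts, Atp7b (0.0428) and low for Il15 (3.39), and replicate 1 was low for Ripk3 (31.0) and Thbs1 (26.5). In the wild-type IFNg libraries, replicate 4 was high for Ifnar1 (62.6) and Cyba (102) and low for Car1 (2.34) and Ces2g (10.6). Replicate 1 was high for Slfn5 (8.07) and low for Cxcr4 (36.1), replicate 2 was low for Usp18 (5.85), and replicate 3 was high for Irgm1 (494) and, with its 1 count, for Gata3 (0.0147).

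For 35 of the genes named, the genotype difference under IFNg departed from that with vehicle by the test of the difference itself (edgeR, adjusted p under 0.05). It was raised on the log2 scale in Tubb3 (3.57), Ly6a (2.92), Cxcl10 (2.07), Slfn2 (1.99), Icosl (1.92), Tent5c (1.37), Pstpip2 (1.15), Csf1 (0.99), Il12rb1 (0.99), Egr1 (0.97), Nfil3 (0.81), Tnfaip2 (0.78), Stat2 (0.52), Slfn9 (0.39), Ccnd2 (0.38) and Ccnd1 (0.30). It was lowered in Nlrc5 (-1.50), Mpeg1 (-1.30), Tagap (-0.92), Mtus1 (-0.85), Ifi47 (-0.83), Gvin1 (-0.83), Usp18 (-0.76), Thbs1 (-0.76), Irf8 (-0.62), Irf1 (-0.51), Csf2rb (-0.49), Cxcr4 (-0.41), Irgm1 (-0.37), Dstyk (-0.34), Ifngr1 (-0.25), Acp2 (-0.25), Wipi2 (-0.21), Ifnar1 (-0.18) and Dazap2 (-0.17). The call of Ifnar1 was lost in 7 of 25 alternatives, namely with only the libraries compared and without mutant IFNg replicate 1 or 2, mutant vehicle replicate 3, wild-type IFNg replicate 3 or 4 or wild-type vehicle replicate 4 (adjusted p up to 0.080).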

How the results depend on the processing

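The number of genes that differed under IFNg lay between 6949 and 8166 over 17 alternatives, with DESeq2 at 7980 against 7893 by edgeR, and the vehicle count between 6562 and 8273. Leaving out 1 library gave 7327 to 8101 genes under IFNg. The 2081 genes that differed by at least 2-fold fell to 1191 under the stricter filter, which tests fewer genes. The count of 245 genes whose difference departed from that with vehicle was less stable: it was 406 by DESeq2 and 127 with only the 16 libraries compared, and leaving out 1 library gave 136 to 382. The cause was not tested. Of the 118 genes tested by name, 111 had the same call under all alternatives for the IFNg difference, with Acp2, Dazap2, Il12rb1, Jak1, Trim25, Tyk2 and Wipi2 as exceptions. Of the 35 whose difference departed from that with vehicle, 27 were called in the same direction throughout. Members called higher among the 320 responsive genes numbered 169 to 209 and those lower 25 to 34. Other list counts that moved by over 1.5 times did so mainly under the stricter filter, which tests fewer genes (stromal and endothelial genes 3 higher and 1 lower, imprinted genes 3 higher, megakaryocyte and platelet genes 4 lower, hepatocyte genes 0 in either direction), or with only the libraries compared (cytokines 2 lower, stromal and endothelial genes 1 lower, hepatocyte genes 0 higher). Ribosome biogenesis genes had 5 higher with structural RNA genes left out. With the share of structural RNA in the model, antiviral effectors had 1 lower, neutrophil genes 1 higher, cholesterol genes 1 higher and imprinted genes 1 lower. Leaving out 1 library gave 2 costimulatory genes lower, 1 receptor and kinase gene lower, 1 PARP gene lower and 0 hepatocyte genes lower at the extremes.

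Same-numbered mutant and wild-type IFNg libraries correlated in their deviations by -0.019, 0.049, 0.050 and 0.227, so the numbers were not taken as pairs. With the replicate block, 7832 genes differed under IFNg, 7917 with vehicle and 258 in the departure. When the share of structural RNA entered the model, the counts were 7197, 8238 and 260. The difference in that share itself lay between 4.10 and 7.07 percentage points without 1 library and was 3.59 without mitochondrial genes. Genes with few counts limit the precision of the ratios given for silent genes.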

Other observations

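Among genes of at least 5 CPM in either line, the greatest differences under IFNg lay outside the interferon genes. As for Dlk1, no counts were found in the wild-type IFNg libraries for Zfp979, Xlr4a, Peg12, Armcx2, Zfp938 and Pkib, which were at least 1620-fold, 1190-fold, 708-fold, 566-fold, 556-fold and 435-fold higher in the mutant line (floor of 3 counts over the group). Cstf2t, a retrogene of an RNA 3′ end processing factor, averaged 56.3 ± 2.49 against 0.0130 ± 0.00927 CPM, a ratio of mutant to wild-type counts of 4590 (95% counting interval 1570 to 22300). Xlr4a and Armcx2 lie on the X chromosome, and Peg12, like Dlk1, is imprinted. In the other direction, Dst, a cytoskeletal linker, averaged 0.0403 ± 0.0424 against 28.4 ± 2.12 CPM, Ces2g, a carboxylesterase, 0.0272 ± 0.0416 against 12.2 ± 1.07 CPM, and Sphk1, which makes sphingosine 1-phosphate, 0.0171 ± 0.0145 against 6.72 ± 0.968 CPM. Atp7b, a copper transporter, had a ratio of wild-type to mutant counts of 702 (240 to 3400). All of these differed in the same direction with vehicle.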
